A study of Mus musculus with 6 samples.

Results

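Norepinephrine and epinephrine act on the heart through adrenergic receptors, and 9 genes of that response are described here in 6 mouse heart libraries. They are the beta receptor genes Adrb1 and Adrb3, the alpha-1 receptor genes Adra1a and Adra1b, the adenylyl cyclase genes Adcy5 and Adcy6, the G protein inhibitor gene Rgs2, and the phosphodiesterase genes Pde4b and Pde4d. They were chosen by gene symbol from the 16229 genes listed, each symbol matched 1 row, and 8 of the 9 passed a filter on low values (a mean of at least 0 log2 CPM over all libraries), as did 12981 genes in all. Only Adrb3 did not.

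All hearts came from male wild-type C57BL/6 mice, an inbred laboratory strain, aged 8 to 10 weeks. In each group 2 libraries were sequenced from poly-A RNA. Mice received rivaroxaban, an oral inhibitor of coagulation factor Xa, at 3 mg/kg for 7 days, or dabigatran, an inhibitor of thrombin (factor IIa), at 10 mg/kg for 7 days, or were untreated. The drugs were thus given at different doses, 1 dose each, and no group carried an engineered allele. The series concerns ischemia-reperfusion injury and the protocol describes the tissue as infarcted heart with its surroundings, but whether untreated mice were operated on is not stated. Nothing states that the 2 libraries of a group are from different animals, so the p-values cover the spread between these libraries, which may be technical. Where hearts of a group are counted or compared below, the word stands for its libraries and not for a known number of animals.

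In background terms, beta receptors couple to the stimulatory G protein, which activates adenylyl cyclase, and the cyclic AMP it makes activates protein kinase A and raises the rate and force of the heartbeat. Type 5 and type 6 are the main cyclases of heart muscle. Alpha-1 receptors couple to Gq and phospholipase C, phosphodiesterases of the PDE4 family break down cyclic AMP, and RGS2 speeds the switching off of Gq.

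Libraries held 27176892 to 43798222 reads in the listed genes. The scale used is log2 CPM, reads per 1e6 after scaling between libraries. Myh6, the heavy chain of adult mouse heart myosin, lay between 15.18 and 15.25 log2 CPM, so heart muscle dominated every library. The injury and neutrophil genes S100a8, S100a9, Spp1 and Il1b, known to be high in hearts soon after infarction, lay between -2.01 and -0.46 log2 CPM. Summed over the 6 of 8 cardiomyocyte markers listed, the level was 65344 and 66156 CPM in untreated hearts. It was 62447 to 63585 with rivaroxaban and 64456 to 65045 with dabigatran, so it was slightly lower in all 4 treated hearts. The median log2 change of these 6 markers was -0.04 with rivaroxaban and 0.01 with dabigatran, and none was called. The sum of the 5 mesothelial markers was 65.03 and 67.67 CPM untreated, 37.2 to 42.6 with rivaroxaban (4 of 5 fell, 1 rose) and 45.3 to 49.5 with dabigatran (2 fell, 1 rose). Of 5 red cell markers only Slc4a1 was listed, at 0.216 to 0.807 CPM untreated, 1.23 to 1.81 with rivaroxaban and 1.70 to 2.54 with dabigatran. The summed level of Schwann cell and neuron markers (5 of 6 listed) was 18.2 CPM in both untreated hearts, 17.9 to 18.9 with rivaroxaban and 15.9 to 16.5 with dabigatran. With dabigatran alone, the smooth muscle and pericyte sum lay above the untreated range (1273 to 1284 CPM against 1225 to 1242). So did the monocyte and macrophage sum (397 to 422 against 363 to 394). The median log2 change of the 6 smooth muscle and pericyte markers was -0.06 with dabigatran, opposite to their sum, and -0.18 with rivaroxaban. That of the 5 monocyte and macrophage markers was 0.08 with dabigatran. With rivaroxaban 1 of 6 smooth muscle and pericyte markers, Myh11, fell (log2 -0.34, limma adjusted p = 0.0416). With rivaroxaban alone, the lymphocyte sum (4 of 6 listed) lay above its untreated range, at 3.57 to 3.66 CPM against 3.47 to 3.49. The adipocyte sum lay below its untreated range, at 27.8 to 29.0 against 29.5 to 33.5. Only 2 markers of each list were tested, and their median log2 changes, -0.07 and 0.12, were opposite to the sums. The heart muscle, mesothelial and red cell sums did not overlap between treated and untreated hearts, and the part of all these markers in the results on the 9 genes was not tested. In bulk tissue, fewer cells of a type and less RNA per cell cannot be told apart.

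Pde4b rose with rivaroxaban, to 1.33 times the untreated level, and Adra1a rose with dabigatran, to 1.46 times. Adrb1, the main beta receptor of heart muscle, was at 0.814 and 0.829 of the untreated level with rivaroxaban and dabigatran and did not pass in either comparison. The other 5 tested genes passed in no comparison. Thus 1 of 8 tested genes (12.5%) was called for rivaroxaban against untreated, where 2.46% of all tested genes were called (1.47% higher, 0.986% lower), and 1 of 8 for dabigatran against untreated, where 1.88% were called, 1.38% higher and 0.501% lower (limma, adjusted p under 0.05 over all 12981 tested genes). With a single gene called in each, the share among these genes cannot be read as different from the background. None was called between the drugs, where 0.077% of all tested genes were called. At an unadjusted p under 0.05 stood 5 of the 8 with rivaroxaban (2233 of all 12981 tested genes), 3 of the 8 with dabigatran (1904 of 12981) and, between the drugs, 1 of the 8, Pde4b (1094 of 12981). The median log2 change of the 8 genes was 0.14 with rivaroxaban and 0.07 with dabigatran against untreated, and that of all tested genes was 0.01 and 0.0026.

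**Figure D1:**
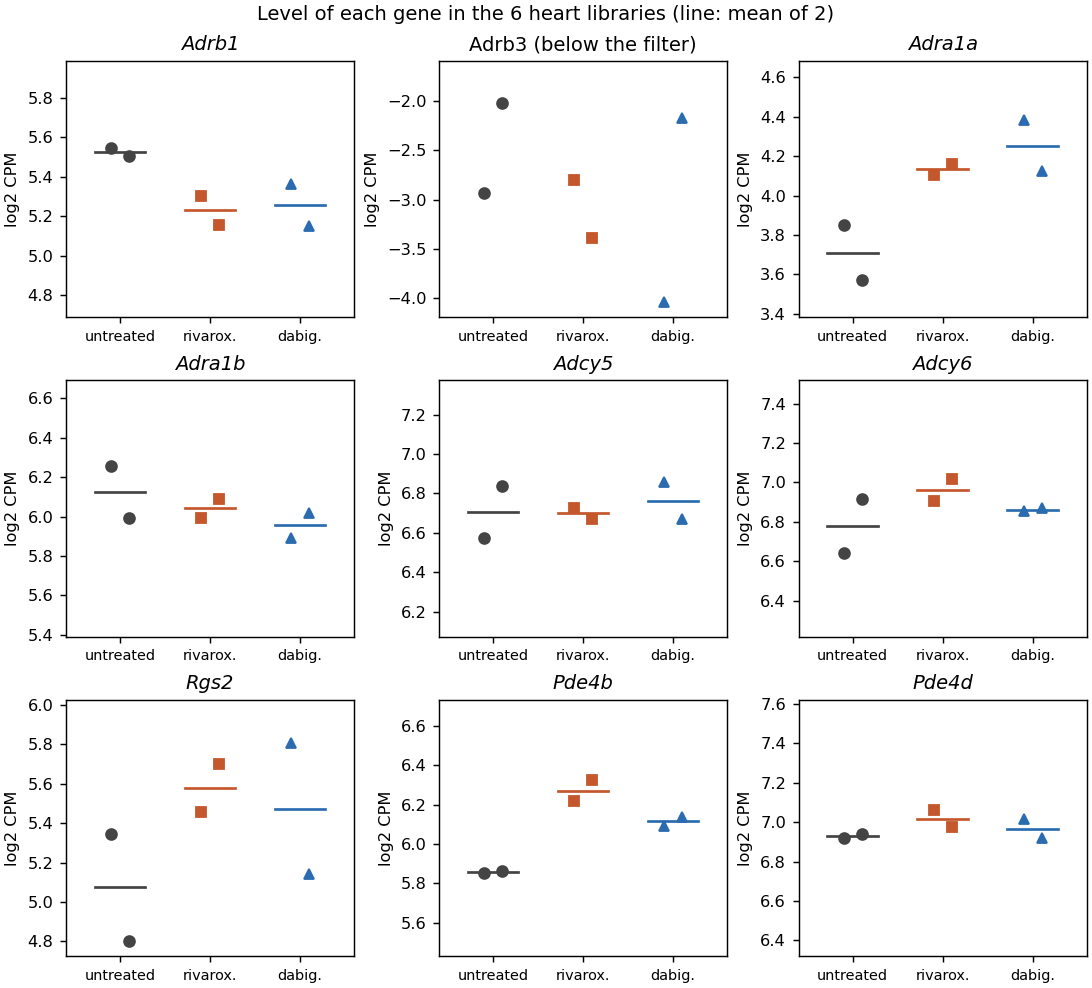
Each panel gives 1 gene, with log2 CPM on the vertical axis and the groups on the horizontal axis; each point is a library and each line the mean of 2 libraries (no mean for Adrb3). Pde4b and Adra1a lie higher, and Adrb1 lower, in all 4 treated hearts than in both untreated hearts.

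Promoter sequence is shown for Pde4b, the gene called with rivaroxaban, and for Rgs2 and Adrb1. These are the 3 genes with a half-site of the cyclic AMP response element in the windows searched. RefSeq windows on GRCm38.p6 matched 6 of the 9 genes (Rgs2, Pde4b, Adra1b, Pde4d, Adcy5 and Adrb1), with 10 windows among them. The 250 bases before the start in each window were searched on both strands. The annotated genes Pde4b and Pde4d begin upstream of their windows, at 102087543 and 108449948, so those starts were not searched. The half-site TGACG was in 3 of these 10 windows, and in 17.8% of all 32851 windows. The full element TGACGTCA, which contains the half-site, was in 0 of the 10 and in 1.55% of all. The glucocorticoid receptor half-site TGTTCT was in 2 of the 10, both of Pde4b, and in 16.1% of all. The sequences run 5′ to 3′ on the gene's strand and capitals mark these matches, which are a description of the letters and not of binding.
Pde4b, first listed start, chr4:102421305-102421554, plus strand: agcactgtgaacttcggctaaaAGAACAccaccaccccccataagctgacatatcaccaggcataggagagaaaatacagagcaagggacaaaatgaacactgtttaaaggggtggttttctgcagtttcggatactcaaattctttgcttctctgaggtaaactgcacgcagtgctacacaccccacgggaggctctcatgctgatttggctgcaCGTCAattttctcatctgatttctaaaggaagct
Pde4b, last listed start, chr4:102589593-102589842, plus strand: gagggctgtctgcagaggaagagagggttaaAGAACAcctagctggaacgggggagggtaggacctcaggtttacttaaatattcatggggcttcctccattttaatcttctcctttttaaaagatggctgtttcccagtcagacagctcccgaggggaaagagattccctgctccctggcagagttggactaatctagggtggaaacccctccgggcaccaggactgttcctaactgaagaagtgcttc
Rgs2, chr1:144004150-144004399, minus strand: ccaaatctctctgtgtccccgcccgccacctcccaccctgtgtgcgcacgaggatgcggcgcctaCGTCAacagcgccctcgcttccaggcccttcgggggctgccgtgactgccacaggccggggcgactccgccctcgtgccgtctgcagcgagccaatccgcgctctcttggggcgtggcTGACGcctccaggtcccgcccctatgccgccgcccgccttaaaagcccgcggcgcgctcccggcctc
Adrb1, chr19:56721867-56722116, plus strand: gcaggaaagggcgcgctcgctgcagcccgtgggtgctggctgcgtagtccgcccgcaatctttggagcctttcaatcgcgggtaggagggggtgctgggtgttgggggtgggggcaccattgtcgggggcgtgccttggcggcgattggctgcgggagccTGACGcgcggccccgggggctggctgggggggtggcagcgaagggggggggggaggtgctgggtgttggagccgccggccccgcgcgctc

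The half-site begins 34 bases before the first listed Pde4b start, 185 and 67 bases before the Rgs2 start and 90 bases before the Adrb1 start. Of these genes, Pde4b and Rgs2 lay higher and Adrb1 lower with rivaroxaban than untreated, and only Pde4b was called. A link between the half-site and these changes was not tested.

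Among the receptors, Adrb1 (ENSMUSG00000035283, chromosome 19, 56722199 to 56733113 on GRCm38, the assembly mm10 stands for) was at 5.55 and 5.51 log2 CPM in the untreated hearts, 5.30 and 5.15 with rivaroxaban and 5.36 and 5.15 with dabigatran. Both untreated values lay above all 4 treated values. The log2 change was -0.30 (SE 0.08, 95% interval -0.48 to -0.11, limma adjusted p = 0.098) with rivaroxaban and -0.27 (SE 0.08, interval -0.46 to -0.09, limma adjusted p = 0.151) with dabigatran. With the drugs averaged, which uses the same libraries again, it was -0.28 (SE 0.07, limma adjusted p = 0.0603), where 3.3% of all tested genes were called (2.14% higher, 1.16% lower). Without dabigatran replicate 10 this average passed (log2 -0.34, limma adjusted p = 0.0299), and over its other settings the adjusted p lay between 0.059 and 0.309.

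Adrb3 (ENSMUSG00000031489, chromosome 8, 27225776 to 27250616) encodes the beta-3 receptor, best known from fat cells. It had 2 and 6 reads in the untreated libraries, 3 and 1 with rivaroxaban and 0 and 7 with dabigatran, and no fold change is given. An antisense gene overlaps it too. The library with 0 reads allows a level of up to 0.112 CPM (3 reads, counting error only). Of 8 adipocyte markers, 6 were listed and none was at 0, but Adipoq, Plin1, Cidec and Retn lay between -3.50 and -0.72 log2 CPM. The summed level of the 6 was 29.5 to 33.5 CPM untreated, 27.8 to 29.0 with rivaroxaban and 32.2 to 33.5 with dabigatran, nearly all of it from Cidea, at 4.69 to 4.99 log2 CPM.

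Adra1a (ENSMUSG00000045875, chromosome 14, 66635251 to 66771168) encodes the alpha-1A receptor. Its level was 3.85 and 3.57 log2 CPM in the untreated hearts, 4.11 and 4.16 with rivaroxaban and 4.38 and 4.13 with dabigatran, from 383 to 759 reads per library. Both untreated hearts lay below every treated heart. The log2 change was 0.54 with dabigatran (SE 0.12, interval 0.29 to 0.80, limma adjusted p = 0.0411) and 0.42 with rivaroxaban (SE 0.12, interval 0.17 to 0.68, limma adjusted p = 0.0914). The call with dabigatran was fragile: it was lost in 8 of 12 alternative settings (adjusted p from 0.0278 to 0.259 over all 12), including without either untreated or either rivaroxaban library and without dabigatran replicate 10 (log2 0.41, limma adjusted p = 0.259). With the drugs averaged the log2 change was 0.48 (SE 0.10, limma adjusted p = 0.0266), and this call was lost in 6 of 11 settings.

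Adra1b (ENSMUSG00000050541, chromosome 11, 43774606 to 43901210) encodes the alpha-1B receptor and passed in no comparison. It was at 6.25 and 5.99 log2 CPM untreated, 5.99 and 6.09 with rivaroxaban and 5.89 and 6.02 with dabigatran, so the groups overlapped. Its log2 change was -0.08 (interval -0.27 to 0.11) with rivaroxaban and -0.17 (interval -0.36 to 0.02) with dabigatran, with limma adjusted p = 0.665 and 0.406.

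The receptors were also compared within each library, as the difference of their log2 CPM, a comparison chosen after the values were seen and given without a test. Adra1a minus Adrb1 was -1.70 and -1.93 in the untreated hearts, -1.20 and -0.99 with rivaroxaban and -0.98 and -1.03 with dabigatran. On the ratio scale, Adra1a CPM was 0.284 of Adrb1 CPM untreated, 0.468 with rivaroxaban and 0.499 with dabigatran. Adra1a minus Adra1b was -2.41 and -2.42 in the untreated hearts and from -1.93 to -1.51 in the treated ones. In both differences the treated hearts lay above both untreated hearts. For Adra1a minus Adrb1 this separation follows from the single genes, as Adra1a was higher and Adrb1 lower in every treated heart. It is therefore no further result, and the share of other gene pairs that separate was not computed. Adra1b minus Adrb1 overlapped, at 0.71 and 0.49 untreated and 0.53 to 0.94 in treated hearts.

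**Figure D2:**
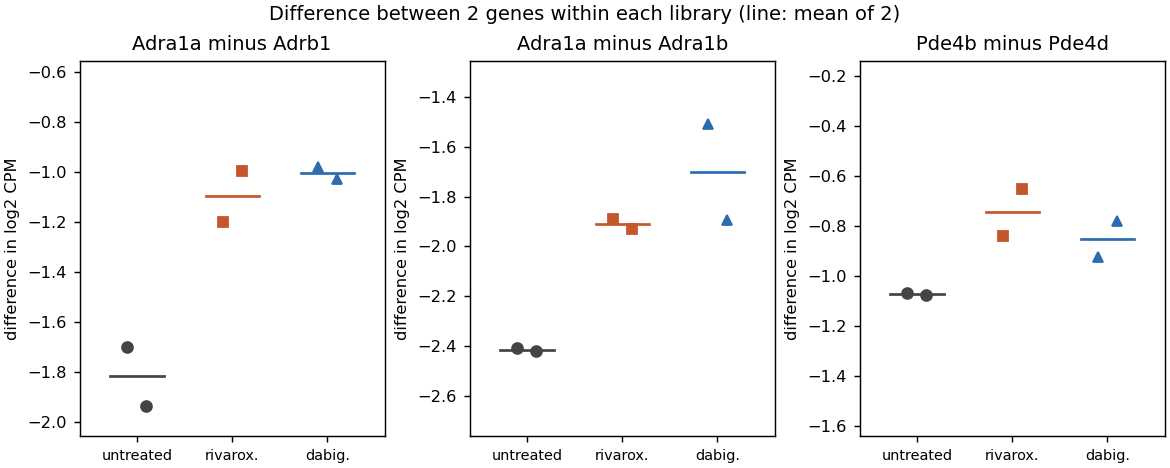
The vertical axis is the difference in log2 CPM between 2 genes of the same library, with groups on the horizontal axis, points for libraries and lines for means of 2. Adra1a minus Adrb1 is at most -1.70 in untreated and at least -1.20 in treated hearts, and Pde4b minus Pde4d at most -1.07 untreated and at least -0.92 treated. Only pairs that separate are plotted. Adra1b minus Adrb1 and Adcy6 minus Adcy5, which overlapped between treated and untreated hearts, are left out.

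The cyclases showed no called difference. Adcy5 (ENSMUSG00000022840, chromosome 16, 35154877 to 35305738) was at 6.57 and 6.84 log2 CPM untreated, 6.73 and 6.67 with rivaroxaban and 6.86 and 6.67 with dabigatran, so both drug groups overlapped the untreated range. Its log2 change was -0.01 (interval -0.20 to 0.19) with rivaroxaban and 0.06 (interval -0.14 to 0.25) with dabigatran. Adcy6 (ENSMUSG00000022994, chromosome 15, 98589973 to 98610076) was at 6.64 and 6.91 log2 CPM untreated, 6.91 and 7.02 with rivaroxaban and 6.85 and 6.87 with dabigatran. Both drug groups overlapped the untreated range, and the untreated libraries differed from each other by more than either drug group mean differed from theirs. An antisense gene overlaps Adcy6, and since the strand setting of the counting is not stated, its reads could be included. Its log2 change was 0.19 (interval 0.01 to 0.37, limma adjusted p = 0.276) with rivaroxaban and 0.09 (interval -0.09 to 0.26, limma adjusted p = 0.684) with dabigatran. The intervals of both cyclases ended below the 1.46-fold of Adra1a, but they cover only the spread between these libraries, which may be technical. Within a library, Adcy6 minus Adcy5 was 0.07 and 0.08 untreated, 0.18 and 0.35 with rivaroxaban and -0.0042 and 0.20 with dabigatran. Treated and untreated hearts thus overlapped in this difference.

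Rgs2 (ENSMUSG00000026360, chromosome 1, 143999338 to 144004161) had the widest spread among the tested genes. It was at 5.34 and 4.80 log2 CPM untreated, 5.46 and 5.70 with rivaroxaban and 5.81 and 5.14 with dabigatran. The rivaroxaban hearts lay above both untreated hearts, whereas dabigatran replicate 12 lay between the untreated values. The log2 change was 0.51 (SE 0.20, limma adjusted p = 0.232) with rivaroxaban and 0.40 (SE 0.20, limma adjusted p = 0.391) with dabigatran, so neither passed. Without dabigatran replicate 12 the average of the drugs passed (log2 0.62, limma adjusted p = 0.0335). With 1 library left out, the log2 change with rivaroxaban reached from 0.24 (without untreated replicate 9) to 0.78 (without untreated replicate 8), and that with dabigatran reached from 0.07 to 0.73.

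Pde4b (ENSMUSG00000028525, chromosome 4, 102087543 to 102607259) had the most uniform untreated level, 5.85 and 5.86 log2 CPM. It was at 6.22 and 6.32 with rivaroxaban and at 6.09 and 6.14 with dabigatran, so no treated heart overlapped an untreated one and the rivaroxaban hearts lay above the dabigatran hearts. Against untreated the log2 change was 0.41 with rivaroxaban (SE 0.06, interval 0.28 to 0.55, limma adjusted p = 0.00536). With dabigatran it was 0.26 (SE 0.06, interval 0.12 to 0.39, limma adjusted p = 0.0618), which missed the threshold. The drugs differed by 0.16 on the log2 scale (SE 0.06, interval 0.02 to 0.29), which did not pass (limma adjusted p = 0.518). With the drugs averaged, the Pde4b log2 change against untreated was 0.34 (SE 0.05, limma adjusted p = 0.00655). This call was lost without untreated replicate 8 (log2 0.33) and without limma's mean-variance trend (limma adjusted p = 0.108). The call with rivaroxaban held in 10 of 12 alternative settings. It was lost without rivaroxaban replicate 15 (log2 0.36) and without limma's mean-variance trend (limma adjusted p = 0.11). The filters, the trend, the groups fitted and leaving out a dabigatran library cannot move this log2 change, only its p.

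Pde4d (ENSMUSG00000021699, chromosome 13, 108449948 to 109953461), the related PDE4 gene with the higher level, was at 6.92 and 6.94 log2 CPM untreated, 7.06 and 6.97 with rivaroxaban and 7.02 and 6.92 with dabigatran. The rivaroxaban hearts lay just above the untreated ones and the dabigatran hearts overlapped them. Its log2 change was 0.09 (interval -0.04 to 0.21) with rivaroxaban and 0.04 (interval -0.09 to 0.17) with dabigatran. Within a library, Pde4b minus Pde4d was -1.07 in both untreated hearts, -0.84 and -0.65 with rivaroxaban and -0.92 and -0.78 with dabigatran. Like the receptor differences, it was chosen after the values were seen and is given without a test. The annotation gives 13 transcripts for Pde4b and 20 for Pde4d, and the gene-level values do not separate them. Several small genes lie inside Pde4d.

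**Figure D3:**
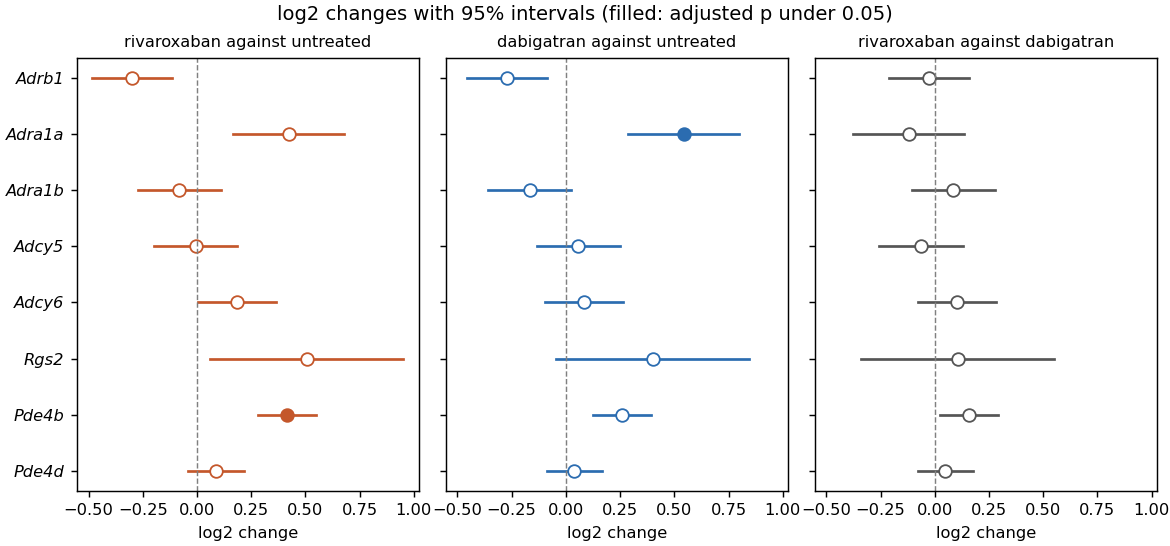
The horizontal axis is the log2 change between group means and the bars are 95% intervals; filled points have an adjusted p under 0.05. Pde4b is filled for rivaroxaban and Adra1a for dabigatran against untreated, and no point is filled between the drugs.

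Groups of 2 libraries often fail to overlap. For rivaroxaban against untreated, 5 of the 8 tested genes did not overlap (4 higher, 1 lower), against 50.6% of all tested genes (26.1% higher, 24.5% lower). For dabigatran against untreated 3 of 8 did not overlap (2 higher, 1 lower), against 43.6% (22.8% higher, 20.8% lower). For rivaroxaban against dabigatran it was 2 of 8, both higher, against 39.7% (19.3% higher, 20.4% lower). With all 4 treated hearts set against both untreated hearts, 3 of 8 (Pde4b and Adra1a higher, Adrb1 lower) did not overlap, against 26.4% of all tested genes (14.7% higher, 11.7% lower). These shares of members lie near the background.

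**Figure D4:**
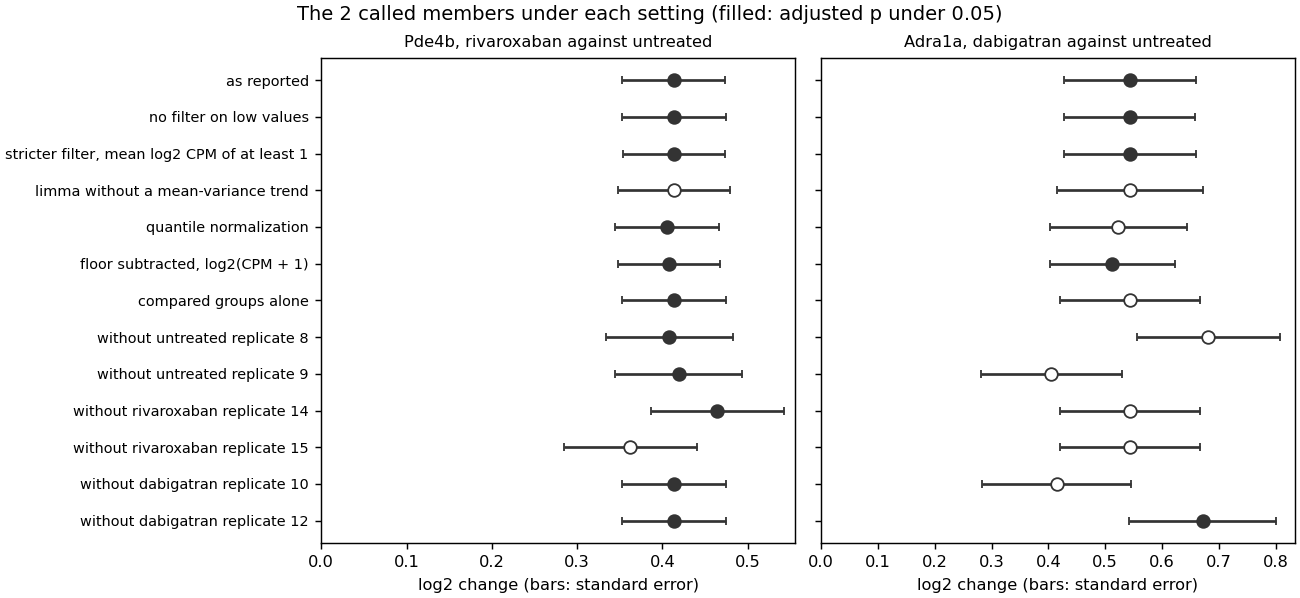
The horizontal axis is the log2 change with its standard error, and each line is a processing setting; filled points have an adjusted p under 0.05. Pde4b with rivaroxaban stays between 0.36 and 0.46, and Adra1a with dabigatran between 0.40 and 0.68. Settings of the filter, the trend, the groups fitted or a library outside the comparison cannot move the log2 change.

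Levels of different genes were compared per kilobase of annotated exon. Over the 6 libraries the mean was 19.5 CPM per kb for Adra1b, 17.3 for Adcy6, 14.7 for Adcy5, 12.0 for Adrb1, 11.7 for Rgs2, 10.4 for Pde4d, 6.45 for Pde4b, 1.90 for Adra1a and 0.0263 for Adrb3. From Adra1b down to Pde4d the ranges of neighbouring genes overlapped. Adrb1 was above Rgs2 in only 3 of 6 libraries, so their order is not set. The ranges of Pde4d, Pde4b, Adra1a and Adrb3 were separate from each other. Adra1b was thus 10.3 times Adra1a per length. However, the 8728 exon bases counted for Adra1a come from 6 annotated transcripts, and a shorter transcript in use would raise its level. The same holds for Pde4b and Pde4d, with 13 and 20 annotated transcripts.

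**Figure D5:**
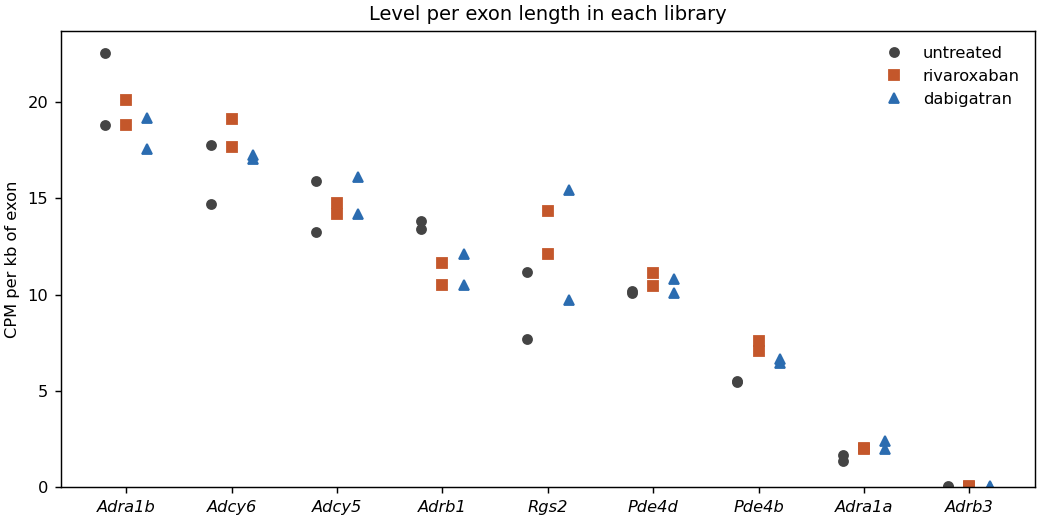
The vertical axis is CPM per kb of annotated exon, from 0, with 1 point per library and the genes in order of their mean. Adra1b, the cyclases, Adrb1, Rgs2 and Pde4d lie in a band between 7.69 and 22.6, in which neighbouring genes overlap. Pde4b, Adra1a and Adrb3 lie below it.

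The rest of the pathway was read from 11 lists holding 132 genes, of which 126 were listed and 116 tested. Leaving aside transcripts known to respond to cyclic AMP, 1 of 103 genes in 10 lists rose and 2 fell with rivaroxaban (2.91% called, against 2.46% of all tested genes), and 0 rose and 3 fell with dabigatran (2.91%, against 1.88%). No member passed among 3 tested of 5 other adrenergic receptors, 8 of 10 other receptors that set cyclic AMP, 18 of 20 G protein subunits, 7 receptor kinases and arrestins, 6 of 8 other cyclases, 15 of 16 other phosphodiesterases and 14 effectors and inhibitors of protein kinase A, in either comparison with untreated hearts or between the drugs. Their median log2 changes lay between 0.03 and 0.18 with rivaroxaban and between -0.02 and 0.30 with dabigatran.

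Of 10 tested RGS proteins other than Rgs2, Rgs4, an inhibitor of Gq and Gi signalling, rose with rivaroxaban. It was at 4.78 and 4.52 log2 CPM untreated, 5.22 and 5.37 with rivaroxaban and 4.95 and 5.04 with dabigatran, so every treated heart lay above both untreated ones. The log2 change was 0.65 with rivaroxaban (SE 0.10, limma adjusted p = 0.00546; adjusted p = 0.121 without rivaroxaban replicate 15) and 0.35 with dabigatran (SE 0.10, limma adjusted p = 0.106). Rgs3 passed only with the drugs averaged (log2 -0.23, SE 0.05, limma adjusted p = 0.0423), and not when any single library was left out.

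Of 11 kinase anchors, which hold protein kinase A near its targets, Akap5 fell with both drugs (log2 -1.31 and -1.23, SE 0.22 each, limma adjusted p = 0.0113 and 0.0194). Each call was lost without either untreated replicate, and without rivaroxaban replicate 15 or dabigatran replicate 10 respectively. Of 11 tested targets of protein kinase A in contraction, Rrad, a GTPase that restrains calcium channels, was lower in both treated groups and passed in each (log2 -1.24 and -0.94, SE 0.14 each, limma adjusted p = 0.00122 and 0.01). With dabigatran the Rrad call was lost without untreated replicate 8 and without dabigatran replicate 10. Kcnq1, a potassium channel subunit of repolarization, fell with dabigatran (log2 -0.30, SE 0.06, limma adjusted p = 0.0365) and lost this call without any single library. With rivaroxaban its log2 change was -0.21 (limma adjusted p = 0.107).

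Of 13 transcripts known to respond to cyclic AMP, 6 rose and 0 fell with each drug, where 1.47% and 1.38% of all tested genes were higher, with median log2 changes of 0.50 and 0.74. They included Sik1, a salt-inducible kinase (3.31-fold and 3.51-fold), the stress factor Atf3 (2.42-fold and 3.07-fold) the clock gene Per1 (1.73-fold and 1.82-fold) and the nuclear receptors Nr4a1 (3.04-fold and 5.78-fold) and Nr4a3 (2.92-fold and 7.46-fold). The other called gene was Irs2, an insulin receptor substrate (2.21-fold and 2.72-fold). Irs2 lies outside the rule for named genes and was added after its values were seen. To complete the list, the 7 that passed with neither drug alone were Crem, Nr4a2, Fos, Fosb, Junb, Dusp1 and Ppargc1a. With rivaroxaban, Atf3, Per1, Nr4a1 and Nr4a3 lost the call without rivaroxaban replicate 15, Nr4a1 and Nr4a3 without untreated replicate 8, and Nr4a3 also without untreated replicate 9 or rivaroxaban replicate 14 and on the log2(CPM + 1) scale. Irs2 lost it without untreated replicate 8 with either drug, without either rivaroxaban replicate with rivaroxaban, and without dabigatran replicate 10 with dabigatran. This list was drawn up with earlier results on several of its genes known, so its count is no independent evidence, and other signals are known to induce the same genes. Pde4b, Pde4d and Rgs2, which also belong to this class in other tissues, had the log2 changes given above.

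Across the 6 libraries, the tested genes most like Adra1a in level were Rnf169 (Pearson r = 0.993), Grik3 (r = 0.992) and Rilpl1 (r = 0.991), and those most like Pde4b were Mier1 (r = 0.997), Uhrf2 (r = 0.995) and Ep400 (r = 0.995), among 11367 genes searched. The libraries share their groups, so these coefficients are a description and no p is given. Mier1, as an example, was at 4.75 and 4.77 log2 CPM untreated, 4.91 and 4.95 with rivaroxaban and 4.86 and 4.89 with dabigatran, in the same order of groups as Pde4b.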

How the data were processed

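The libraries were strand-specific and made from poly-A heart RNA, per the labels' protocols. STAR, Trim Galore, FastQC, bcl2fastq and edgeR, with mm10, appear in the submitters' processing notes. The counter of reads, its strand setting and the gene models were not given in the sources used here. According to the column names and per the file headers, the deposited values are log2 CPM scaled by the authors with TMM. Every library has the same lowest value, -4.04, so some small count had been added prior to taking logs, and changes of low genes are understated. After that floor was subtracted on the linear scale, 100% of values below 200 steps were whole multiples of 1 read (tolerance 0.02 reads), worth 0.0229 to 0.0373 CPM, which gave the reads per gene and library. Without molecular identifiers, such reads are not independent molecules.

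Group means (3) were fitted over all 6 libraries and 12981 genes with limma 3.58.1 in R 4.3.3 (eBayes with a mean-variance trend, 3 residual and 7.75 prior degrees of freedom). Tests were two-sided and Benjamini-Hochberg adjusted over all tested genes in each comparison, with a threshold of 0.05. The spread is shared by the groups. Counts were simulated for rivaroxaban against untreated at these depths (13008 genes), with the same spread beyond counting error for every gene. The fit recovered 26% of 100 log2 changes of 0.5 and 98.0% of 98 of size 1, with 4 false calls. The spread of the real genes differs between genes, so these shares do not carry over to them directly. Coordinates and exon lengths are from GENCODE M21. The 9 genes and the lists were chosen with earlier results of these data known. Named beside them are, for each list and comparison, the up to 4 called genes with the smallest p and, for called genes, the 3 genes with the highest correlation. The alternatives changed the filter, the trend, the scaling, the added count, the groups fitted and the libraries used.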

Additional observations from a re-analysis of the deposited data

How the results depend on the processing

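No paired analysis was possible because the groups share no replicate number. Without the mean-variance trend 0 members were called in every comparison, as was no gene of the whole table. With the drugs averaged, 2 members, Pde4b and Adra1a, were called (3.3% of all tested genes), 1 under quantile normalization (363 of 12981 genes), and 1 to 3 with 1 library left out (158 to 498 genes). With dabigatran the single call, Adra1a, became 0 under quantile normalization (adjusted p = 0.0765) and with the compared groups alone (adjusted p = 0.0677), and it was 0 to 1 with 1 library left out. With rivaroxaban the single call, Pde4b, was 0 to 1 with 1 library left out. The causes were not tested. Of the recomputed log2 changes of single genes, 338 kept direction and side of the threshold, 18 lost a call, 2 gained one and 18 changed sign, none of these called and all with 1 library left out. The filter, the trend, the groups fitted and a left-out library outside the comparison cannot move a log2 change. Direction was thus fixed in advance in those settings, and the 338 is no measure of stability. For rivaroxaban against untreated, the left-out range was -0.21 to 0.049 for Adra1b and -0.14 to 0.13 for Adcy5. For dabigatran it was -0.074 to 0.19 for Adcy5, -0.051 to 0.22 for Adcy6 and -0.012 to 0.088 for Pde4d. Between the drugs it was -0.13 to 0.078 for Adrb1, -0.25 to 0.0081 for Adra1a, -0.16 to 0.030 for Adcy5, -0.23 to 0.44 for Rgs2 and -0.0011 to 0.099 for Pde4d. With the drugs averaged it was -0.26 to 0.0068 for Adra1b, -0.11 to 0.16 for Adcy5 and -0.00080 to 0.27 for Adcy6. Where a group was left with 1 library, that library was assumed to vary like the others. Depth limits Adrb3 alone, at 0 to 7 reads per library.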
